A study of Rattus norvegicus with 10 samples.

Results

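Oxidative phosphorylation is carried out by 5 protein complexes of the inner mitochondrial membrane, and most of their subunits are encoded in the nucleus. The members here were all rows of the deposited gene table whose symbol begins with Nduf followed by a, b, s, v or c and a number, is Sdha to Sdhd, or begins with Uqcr, Cox4 to Cox8 or Atp5. This rule used names only and gave 80 genes of 17168. Of these, 76 passed the filter on low counts, among 12161 genes tested. They comprised 34 genes of complex I, 4 of complex II, 8 of complex III, 13 of complex IV and 17 of complex V, with Ndufa4 counted in complex IV. A search by name for the mitochondrially encoded subunits found 0 rows in the deposited table, so they were not analysed here.

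Expression was measured by RNA sequencing of left hippocampi from 10 male TgF344-AD rats, which carry transgenes that model Alzheimer's disease, at 11 months of age. Of these, 5 ate plain chow (untreated) and 5 ate chow with 750 mg of RG2833 per kg, from 5 months of age for 6 months. RG2833 inhibits HDAC1 and HDAC3, enzymes that remove acetyl groups from histones. All 10 rats were transgenic, so there was no wild-type group here; a sentence of the design text names ibudilast as the drug, and the treatment labels were followed.

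Complex I (NADH dehydrogenase) and complex II (succinate dehydrogenase) pass electrons to ubiquinone, complex III (the cytochrome bc1 complex) passes them to cytochrome c, and complex IV (cytochrome c oxidase) passes them to oxygen. Complexes I, III and IV pump protons, and complex V (ATP synthase) makes ATP as protons flow back. Neurons depend on this pathway to fuel ion pumping and synaptic transmission. Nuclear genes of the pathway are known targets of the factors NRF1, GABP (also called NRF2, of the ETS family) and YY1, and of the coactivator PGC-1alpha, encoded by Ppargc1a.

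The promoters of 4 members of complexes III, IV and V are shown as examples of starts that carry such motifs, and no test was made of the motifs against expression. Each is the 120 bases just before the annotated start, read 5′ to 3′ on the gene's strand, from RefSeq on the GRCr8 assembly. Capitals mark the GABP core CCGGAAG, which reads CTTCCGG on the other strand, or the NRF1 core GCATGCGC, which in Atp5i occurs on both strands with overlap.
Cox8a, chr1:213833624-213833743, minus strand: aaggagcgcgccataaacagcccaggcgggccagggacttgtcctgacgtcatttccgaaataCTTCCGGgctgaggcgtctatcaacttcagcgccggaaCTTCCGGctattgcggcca
Cox7a2, chr8:89601150-89601269, minus strand: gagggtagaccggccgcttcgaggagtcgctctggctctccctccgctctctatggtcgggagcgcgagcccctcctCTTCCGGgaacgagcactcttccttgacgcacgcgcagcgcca
Uqcrq, chr10:38089979-38090098, minus strand: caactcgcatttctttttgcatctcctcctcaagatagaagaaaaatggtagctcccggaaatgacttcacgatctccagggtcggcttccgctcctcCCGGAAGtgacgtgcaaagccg
Atp5i (Atp5me in RefSeq), chr14:1464740-1464859, plus strand: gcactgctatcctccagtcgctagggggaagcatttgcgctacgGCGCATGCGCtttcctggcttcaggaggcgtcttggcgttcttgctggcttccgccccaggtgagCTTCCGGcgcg

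All 80 members matched a RefSeq gene by symbol or synonym, and 68 had a promoter of 300 bases, 250 before and 50 after the start. Both strands were searched in all 27457 promoters. These outnumber the 12161 genes tested, so the shares of all promoters below include genes that were not tested for expression. The GABP core was in 19 of the 68 member promoters (27.9%) and in 9.22% of all promoters. The YY1 motif AAGATGGC was in 15 (22.1%), against 3.44% of all. The NRF1 core was in 9 (13.2%), among them Atp5g2, Atp5i, Atp5o, Ndufa11 and Sdhb, against 2.66% of all. At least 1 motif was in 32 of the 68 promoters (47.1%), against 14.1% of all. The 31 of these genes that were tested had a median log2 fold change (RG2833 minus untreated) of 0.10, and the 34 tested genes with none of the 3 motifs had 0.07. These matches are descriptions of letters in a window, not measured binding.

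The libraries held 15984438 to 18533520 expected counts in untreated and 15118203 to 17395662 in RG2833 rats, and each is a separate rat per the labels. CPM below are counts per 1000000 counts of the TMM-scaled library. Untreated replicate 3 stood apart in its markers of hippocampal fields. The dentate granule marker Prox1 was at 4.30 CPM there and at 21.5 to 50.5 CPM in the other 9 libraries, and C1ql2 was at 7.10 against 38.2 to 142 CPM. Calb1, which interneurons and CA1 cells also express, was at 90.6 CPM and made up most of that library's dentate sum of 102 CPM. Summed over 6 genes, CA3 markers were at 256 CPM in untreated replicate 3, 472 in RG2833 replicate 4 and 358 in RG2833 replicate 5; no other library was under 676 CPM, and the highest was 854 CPM. CA1 markers were at 452 to 1031 CPM in untreated and 652 to 924 CPM in RG2833 rats. Of 5 skeletal muscle genes 1 passed the filter. The part of these differences in the results below was not tested, and values without untreated replicate 3 are given for some counts, sums and named members.

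No member passed the comparison of RG2833 with untreated rats. At an adjusted p under 0.05 there were 0 of 76 members and 0 of 12161 genes (0% of all genes tested; edgeR quasi-likelihood test with Benjamini-Hochberg adjustment), and the smallest adjusted p of a member was 0.841. The differences that were measured were small and nearly all had the same sign. The log2 fold change was above 0 in 73 of the 76 members (96.1%), against 46.5% of all genes tested, and its median was 0.08, a fold of 1.06, against -0.01 over all genes. It ran from -0.07 for Ndufa10 to 0.24 for Cox6a1. At an unadjusted p under 0.05 there were 11 members, all higher under RG2833 (14.5% of the members), where 5.66% of all genes tested passed in either direction, 2.94% higher and 2.71% lower. The unadjusted count was sensitive to single libraries, and so was the share of all genes that passed in either direction. Without untreated replicate 3 it was 27 members, where 14.2% of all genes passed. It was 3 without untreated replicate 4 (4.88% of all genes), and 4 without untreated replicate 2 (4.17%) or RG2833 replicate 4 (3.07%). It was 6 without untreated replicate 1 (5.21%), RG2833 replicate 2 (5.30%) or RG2833 replicate 5 (3.47%). DESeq2 gave 18 members (6.17% of all genes) and 0 at an adjusted p under 0.05.

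**Figure D1:**
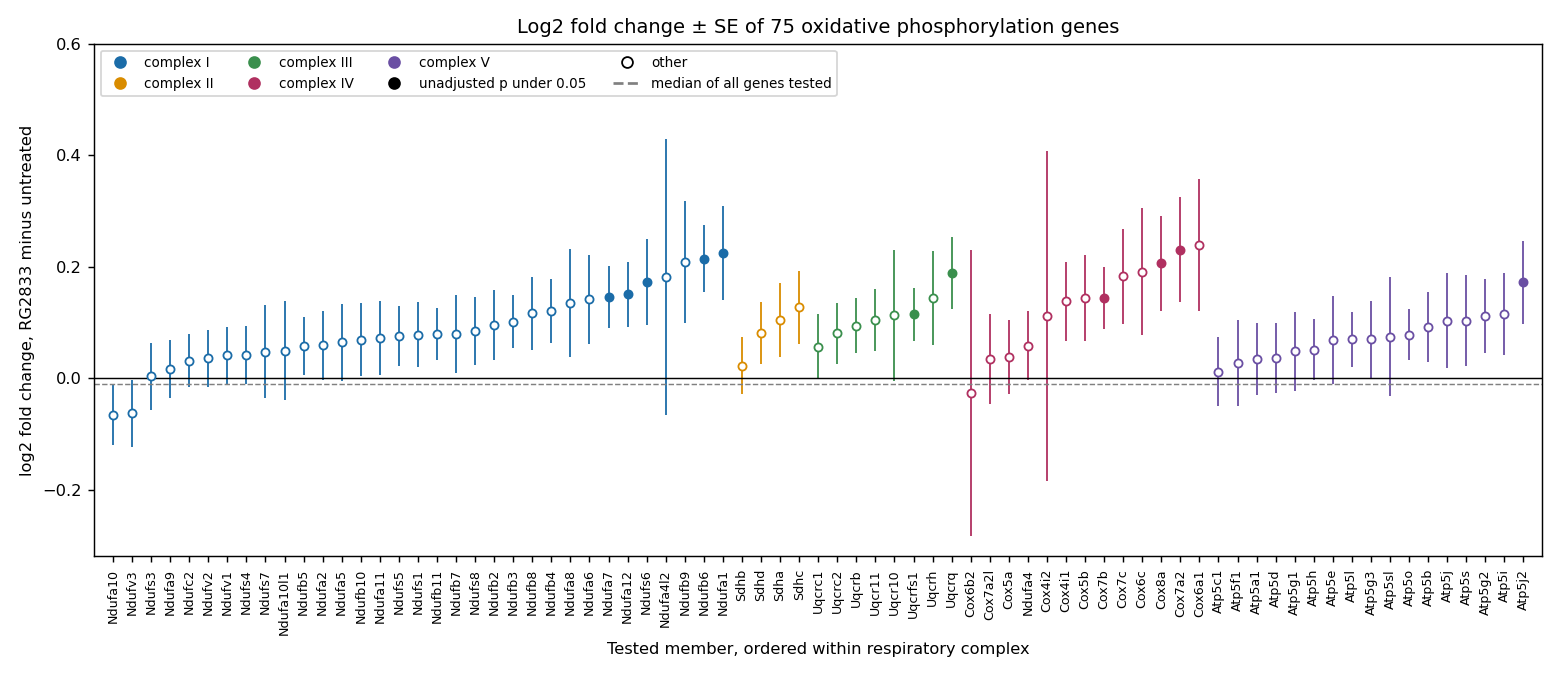
Log2 fold change (RG2833 minus untreated, y axis) of 75 of the 76 tested members (x axis), ordered within complexes I to V; points are estimates, bars are ± 1 SE, and filled points have an unadjusted p under 0.05. All but 3 points lie above 0, within a narrow range up to 0.24, and the 11 filled points are all above 0.

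In 36 of the 76 members all 5 RG2833 libraries lay above the untreated mean, as they did in 7.5% of all genes tested. The 2 groups did not overlap in 4 members, all higher under RG2833: Ndufb3, Ndufb6, Uqcrfs1 and Uqcrq. Among all genes tested, 0.419% did not overlap and were higher, and 0.584% did not overlap and were lower. For each of these 4 genes an exact permutation test (two-sided, every regrouping of the 10 libraries) gave p = 0.00794, the smallest it can give with n = 5 each, and 0.764 after adjustment over all genes tested. Groups that do not overlap always give this smallest p, so it adds nothing to the lack of overlap.

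Counted together, the tested members amounted to 11024, 10573, 11206, 10490 and 11131 CPM in untreated replicates 1 to 5. In RG2833 replicates 1 to 5 they amounted to 11521, 11585, 11115, 11991 and 12011 CPM. The means were 10885 ± 330 and 11645 ± 372 CPM (SD, n = 5 each), a ratio of 1.07. The groups overlapped only through RG2833 replicate 3, which lay below untreated replicates 3 and 5; the other 4 RG2833 libraries were above every untreated library. Each complex had a higher mean sum under RG2833, with ratios of 1.06 for complex I, 1.07 for II, 1.07 for III, 1.11 for IV and 1.05 for V. For complex III the groups did not overlap, at 1033 to 1100 CPM untreated and 1117 to 1175 CPM under RG2833. In complex IV they overlapped most, at 2124 to 2618 and 2409 to 2754 CPM. Without untreated replicate 3 the highest untreated sum was 2392 CPM, below every RG2833 sum. RG2833 replicates 4 and 5, which shared its low CA3 markers and had the highest RG2833 sums, were kept in that comparison. The median log2 fold change of complex IV, 0.14 in all 10 libraries, was 0.19 without untreated replicate 3. It was 0.12 without RG2833 replicate 4 and 0.13 without RG2833 replicate 5. CPM is a share of each library, so these values do not give an amount of RNA per cell, and in whole tissue fewer cells of a type and less RNA per cell cannot be told apart.

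**Figure D2:**
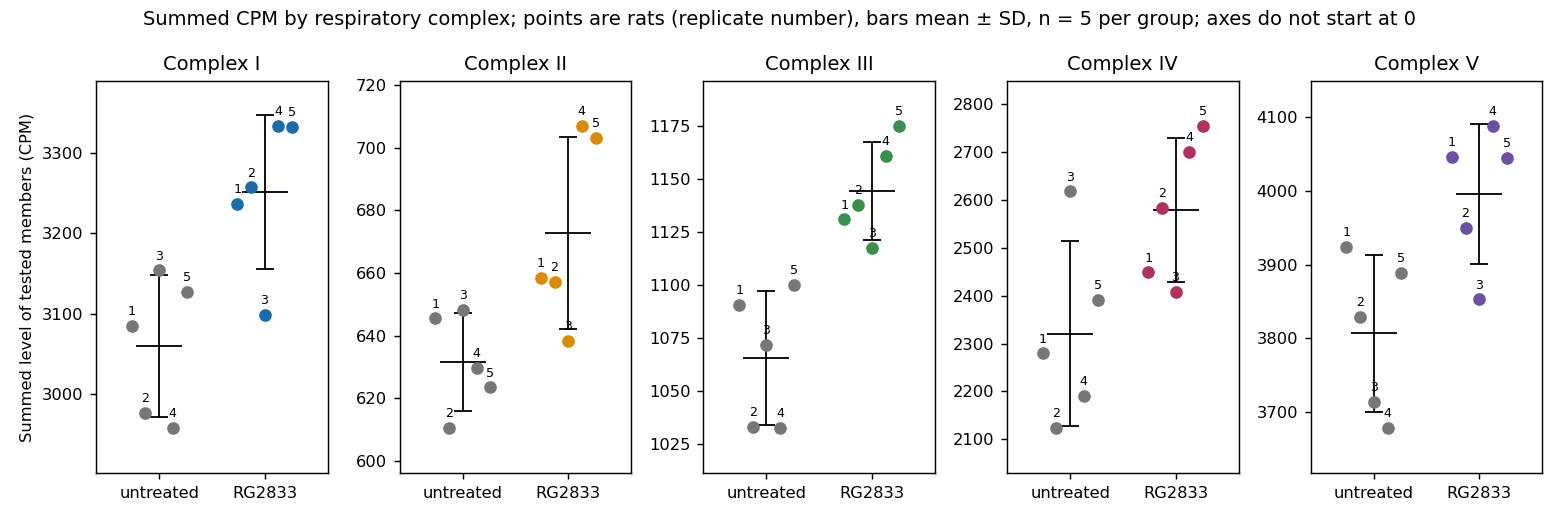
Summed CPM of the tested members of each complex (y axes, which do not start at 0) in untreated and RG2833 rats; each point is 1 rat with its replicate number, and bars are the mean ± SD (n = 5 each). RG2833 replicates 4 and 5 are the highest in complexes I to IV, and untreated replicate 3 stands with them in complex IV but near the bottom of its group in complex V.

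Complex I takes up electrons from NADH through a peripheral arm whose catalytic core has 7 nuclear subunits. All 7 had a log2 fold change above 0, with a median of 0.05, and 0 had an unadjusted p under 0.05. The lowest was 0.003 for Ndufs3, whose sign changed under 7 of 18 alternative fits, and the sign of Ndufs7 changed under 1. Ndufv1, which holds the FMN that receives the electrons, was at 202, 191, 183, 184 and 200 CPM in the untreated and 200, 205, 193, 197 and 194 CPM in the RG2833 rats. The groups overlapped, with 3 untreated libraries below the lowest RG2833 value (log2 fold change 0.04, SE 0.05). Ndufs1, the largest iron-sulfur subunit, was at 158 ± 9.78 and 166 ± 6.21 CPM (n = 5 each; log2 fold change 0.08, SE 0.06).

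The other 27 genes counted with complex I are mostly accessory subunits, which surround the core and are needed for its assembly or stability; the paralogues Ndufa4l2 and Ndufa10l1 are counted with them by name. Their median log2 fold change was 0.08, 25 were above 0, and 5 had an unadjusted p under 0.05: Ndufa1, Ndufa7, Ndufa12, Ndufb6 and Ndufs6. Ndufb6, a membrane arm subunit, had the smallest unadjusted p of the members. It was at 53.3, 48.4, 44.7, 48.5 and 52.0 CPM in the untreated and 60.8, 57.5, 56.9, 55.6 and 55.5 CPM in the RG2833 rats. Every RG2833 library was above every untreated one, and the log2 fold change was 0.21 (SE 0.06; by edgeR the unadjusted p = 0.00440, adjusted p = 0.841). Its unadjusted p stayed under 0.05 in all 18 alternative fits, with adjusted p from 0.290 to 1.00. The other 10 members with an unadjusted p under 0.05 lost it in some fits. Uqcrq kept it in 17 of 18, Ndufa1 in 15, Ndufa12 in 14, Ndufa7 in 13 and Cox7b in 12. Cox8a kept it in 10, Uqcrfs1 in 9, Cox7a2 and Atp5j2 in 8 each and Ndufs6 in 7.

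Ndufb3, also of the membrane arm, was at 79.5, 74.4, 80.4, 73.5 and 77.1 CPM in the untreated and 80.9, 82.7, 80.7, 82.9 and 85.8 CPM in the RG2833 rats. The groups were apart by less than 1 CPM at their nearest values (log2 fold change 0.10, SE 0.05; by edgeR the unadjusted p = 0.0592). Ndufa1, a small X-linked subunit needed for assembly, was at 56.0, 61.1, 73.7, 64.3 and 58.8 CPM in the untreated and 69.1, 76.8, 66.1, 79.8 and 74.9 CPM in the RG2833 rats. Untreated replicate 3 lay within the RG2833 range, and the log2 fold change was 0.22 (SE 0.08), the highest in complex I.

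Ndufa7, an accessory subunit of the peripheral arm, was at 42.1 ± 2.62 CPM in the untreated and 46.5 ± 1.18 CPM in the RG2833 rats (log2 fold change 0.15, SE 0.06). Ndufa12, also of the peripheral arm, was at 58.3 ± 2.26 and 64.7 ± 4.03 CPM (a log2 fold change of 0.15, SE 0.06). In the latter gene RG2833 replicate 3, at 57.8 CPM, lay among the untreated values, and the other 4 were from 64.7 to 67.4 CPM. Ndufs6, a zinc-binding subunit, was at 46.4 ± 3.87 and 52.3 ± 4.32 CPM (a log2 fold change of 0.17, SE 0.08). The ranges overlapped for all 3, each with an adjusted p of 0.841 by edgeR.

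Among the complex I genes, 2 had a log2 fold change under 0: Ndufa10 (-0.07, SE 0.05) and Ndufv3 (-0.06, SE 0.06), neither with an unadjusted p under 0.05. Ndufa10 was at 73.7, 67.2, 67.0, 67.7 and 75.3 CPM in the untreated and 66.6, 69.8, 65.7, 65.6 and 67.5 CPM in the RG2833 rats. Its expected counts were not whole in any of the 10 libraries, and the same held for the near copy Ndufa10l1, so reads were divided between genes and both values are uncertain.

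Complex II is the only complex here with a role in the citric acid cycle as well, and all its subunits are nuclear. Sdha, the flavoprotein that oxidises succinate, was at 324, 287, 318, 310 and 293 CPM in the untreated and 321, 314, 306, 351 and 355 CPM in the RG2833 rats. Only RG2833 replicates 4 and 5 were above the untreated range (log2 fold change 0.10, SE 0.07). Sdhb, the iron-sulfur subunit, had the lowest log2 fold change of the complex (0.02, SE 0.05, and from 0.005 to 0.05 over the alternative fits). The membrane anchors Sdhc and Sdhd had 0.13 (SE 0.07) and 0.08 (SE 0.06). None of the 4 had an unadjusted p under 0.05.

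In complex III all 8 genes had a log2 fold change above 0 (median 0.11). Uqcrfs1, the Rieske iron-sulfur protein that takes electrons from ubiquinol, was at 130, 124, 120, 122 and 129 CPM in the untreated and 139, 132, 132, 136 and 137 CPM in the RG2833 rats. The lowest RG2833 value was above the highest untreated value (log2 fold change 0.11, SE 0.05; by edgeR the unadjusted p = 0.0338, adjusted p = 0.841). Uqcrq, a small subunit of the membrane part, was at 93.2, 89.3, 103, 84.0 and 102 CPM in the untreated and 107, 108, 104, 111 and 108 CPM in the RG2833 rats. The RG2833 values were closely grouped and all higher than the untreated ones (log2 fold change 0.19, SE 0.06; by edgeR the unadjusted p = 0.0144, adjusted p = 0.841). The large subunit Uqcrc1 differed less, at 197 ± 10.1 and 205 ± 10.5 CPM (log2 fold change 0.06, SE 0.06, and from 0.01 to 0.08 over the alternative fits).

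Complex IV had the highest median log2 fold change of the 5 complexes, 0.14, with 12 of 13 genes above 0 and 3 at an unadjusted p under 0.05: Cox7a2, Cox7b and Cox8a. A test between complexes was not made. Cox7a2, a small membrane subunit, was at 110, 105, 142, 116 and 119 CPM in the untreated and 126, 139, 125, 149 and 156 CPM in the RG2833 rats. Untreated replicate 3 was above 3 of the RG2833 libraries, and the log2 fold change was 0.23 (SE 0.09). Cox8a, another small membrane subunit, was at 261, 260, 322, 243 and 297 CPM in the untreated and 305, 311, 304, 329 and 345 CPM in the RG2833 rats. Without the 322 of untreated replicate 3 its groups would not overlap (log2 fold change 0.21, SE 0.09). Cox7b, an X-linked subunit, was at 95.1 ± 4.17 and 105 ± 5.71 CPM (a log2 fold change of 0.14, SE 0.06). By edgeR each of the 3 had an adjusted p of 0.841. The counts of Cox7a2 and Cox7b were not whole in 7 and 8 libraries, so that they too share reads with other genes.

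Cox6a1, the ubiquitous form of subunit 6a, had the highest log2 fold change of all members, 0.24, with the large SE of 0.12. It was at 331, 302, 456, 317 and 370 CPM in the untreated and 379, 413, 379, 454 and 470 CPM in the RG2833 rats, and untreated replicate 3 was as high as the upper RG2833 libraries. Cox4i1, the subunit that senses the ATP to ADP ratio, was at 446 ± 32 and 491 ± 27.2 CPM (a log2 fold change of 0.14, SE 0.07). Cox5b, a zinc-binding subunit, had a log2 fold change of 0.14 (SE 0.08) and Cox5a one of 0.04 (SE 0.07). Ndufa4, long counted with complex I and now placed in complex IV, had 0.06 (SE 0.06), and Cox7a2l, which joins complexes III and IV into supercomplexes, had 0.03 (SE 0.08).

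The tissue-restricted isoforms had few counts. Cox4i2, the isoform known from lung and low oxygen, had 20 to 50 counts per library, and its log2 fold change of 0.11 (SE 0.30) turned to -0.04 when untreated replicate 1 was left out. Cox6b2, the testis form of subunit 6b, had 13 to 40 counts (log2 fold change -0.03, SE 0.26), and its sign changed under 9 of the 17 alternative fits that gave a value. The paralogue of Ndufa4, Ndufa4l2, had 42 to 98 counts (log2 fold change 0.18, SE 0.25; 0.42 without untreated replicate 3 and 0.04 without RG2833 replicate 4). None of these differed beyond its error.

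The 4 members that the filter removed were Cox6a2, Cox8b, Cox8c and Cox6c-ps1. Cox6a2, the heart and skeletal muscle form of subunit 6a, had 22, 25 and 25 counts in untreated replicate 3 and RG2833 replicates 4 and 5, and from 2 to 7 in the other libraries. Cox8b, another muscle form, had 31 and 39 counts in untreated replicate 2 and RG2833 replicate 1 and from 3 to 11 elsewhere. The latter 2 libraries were those with 135267 and 126904 counts of Ttr, the transthyretin gene that choroid plexus epithelium expresses strongly, against 45 to 3955 in the other 8. Cox8c had 2 counts in untreated replicate 3 and 0 elsewhere, and the pseudogene Cox6c-ps1 had 0 in every library.

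In complex V all 17 genes had a log2 fold change above 0, with a median of 0.07; without untreated replicate 3, 15 of 17 did. These include Atp5s and Atp5sl, related factors that are not subunits of the synthase and are counted here by name. The 5 genes of the catalytic F1 part had a median of 0.04 and none had an unadjusted p under 0.05. Atp5b, the catalytic beta subunit, was at 1312, 1268, 1241, 1215 and 1284 CPM in the untreated and 1352, 1306, 1305, 1394 and 1375 CPM in the RG2833 rats. Only untreated replicate 1 lay within the RG2833 range, and the log2 fold change was 0.09 (SE 0.06; by edgeR the unadjusted p = 0.174). Atp5a1, the alpha subunit, was at 674 ± 40.2 and 690 ± 19.3 CPM (a log2 fold change of 0.03, SE 0.06; 0.003 without untreated replicate 3). Atp5c1, the gamma subunit of the rotor, had the lowest value of the complex, 0.01 (SE 0.06), and it was -0.03 without untreated replicate 3.

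The 10 genes of the membrane part and stalk had a median of 0.07. Of these, 1 gene passed an unadjusted p of 0.05: Atp5j2, the small f subunit, at 124, 112, 143, 125 and 128 CPM in the untreated and 134, 145, 130, 152 and 150 CPM in the RG2833 rats. Untreated replicate 3 was above RG2833 replicates 1 and 3, and the log2 fold change was 0.17 (SE 0.07; adjusted p = 0.841, edgeR). Atpif1, which inhibits the synthase when the proton gradient fails and lies outside the naming rule, was at 118 ± 14.4 and 120 ± 8.25 CPM (a log2 fold change of 0.02, SE 0.09).

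Members moved together from rat to rat, within groups as well as between them. Each member's log2 CPM was set against its own mean over the 10 libraries. The number of members above their mean was 26, 16, 43, 7 and 39 of 76 in untreated replicates 1 to 5, and 49, 61, 26, 65 and 54 in RG2833 replicates 1 to 5. Untreated replicate 4 was thus low in nearly all members and RG2833 replicate 4 high in most, while RG2833 replicate 3 equalled untreated replicate 1. Because the members share this variation, the 76 genes are not 76 independent observations of the drug.

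**Figure D3:**
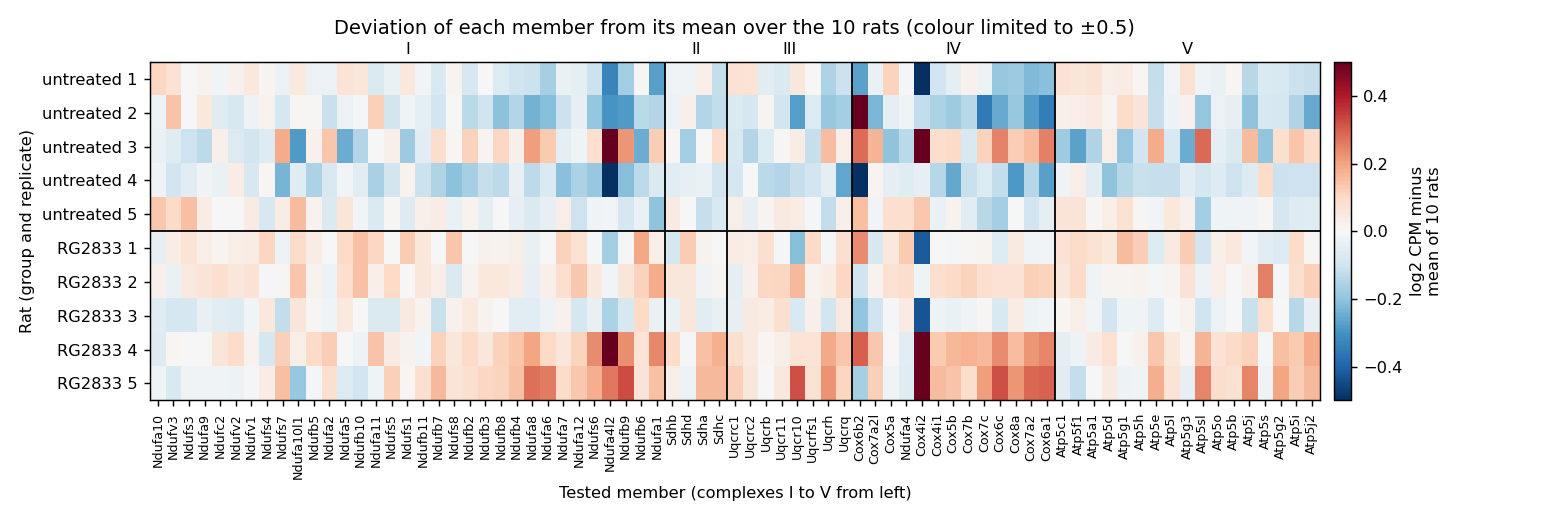
Deviation of log2(CPM + 0.1) from the gene's mean over 10 rats (colour, limited to ±0.5) for 75 of the 76 tested members (x axis, complexes I to V) in each rat (y axis). Rows for untreated replicates 2 and 4 are mostly blue and those for RG2833 replicates 4 and 5 mostly red; untreated replicate 3 is red in most of complex IV and blue in genes such as Atp5c1, Atp5a1, Ndufs1 and Cox5a.

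Untreated replicate 3 did not move as a block. In this library Cox6a1, Cox7a2, Cox8a and Ndufa1 were the highest of the untreated group, whereas Atp5c1, Atp5a1, Ndufs1 and Cox5a were the lowest (Cox5a at 144 CPM, against 160 to 179 CPM in the others). Without it the log2 fold change was 0.04 for Ndufs1, 0.02 for Ndufv1, 0.05 for Sdhd, 0.03 for Ndufa4 and -0.004 for Cox5a, and it was 0.08 for Cox7a2l, 0.29 for Cox4i2 and 0.04 for Cox6b2. Of the members that were highest in this library, it was then 0.34 for Cox6a1, 0.30 for Cox7a2, 0.27 for Cox8a and 0.29 for Ndufa1. Without it the median log2 fold change of complex IV was 0.19 and that of all members 0.10, and 68 of 76 members were above 0. Without the 2 libraries rich in Ttr the median of all members was 0.08, 72 of 76 were above 0 (45.4% of all genes in that fit), and 2 had an unadjusted p under 0.05 (4.90% of all genes, either direction).

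In the fit of all 10 libraries a smaller share of the other mitochondrial genes than of the members was above 0, and these counts moved with single libraries. Of 36 tested assembly factors of the respiratory complexes, 21 had a log2 fold change above 0 and 15 below (median 0.03; with single libraries left out, 19 to 26 genes, and a lowest median of 0.01 without untreated replicate 3). Without both libraries rich in Ttr it was 18 of 36 (median -0.003). At an unadjusted p under 0.05, Cox16 was higher (0.22, SE 0.09) and Cox15, which makes haem a for complex IV, was lower (-0.12, SE 0.05). Of 69 mitochondrial ribosomal protein genes, 38 were above 0 (median 0.01). With single libraries left out the count ran from 34 (median -0.001, without untreated replicate 4) to 43 (median 0.03, without untreated replicate 5). Without both libraries rich in Ttr it was 31 of 69 (median -0.01). Mrps36, now also placed in the alpha-ketoglutarate dehydrogenase complex, was at 0.15 (SE 0.07). Of 17 genes of pyruvate dehydrogenase and the citric acid cycle, 11 were above 0 (median 0.02). Without untreated replicate 1 it was 16 of 17 (median 0.06), and without untreated replicate 3 it was 9 of 17 (median 0.01). The difference in direction between these lists and the members was not tested.

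Of 17 import and cristae genes 9 were above 0 (median 0.005, and -0.001 with upper-quartile scaling). With limma-voom 6 were above 0 (median -0.01), and without untreated replicate 1, which gave the highest median (0.03), 11 were. The count was 5 without RG2833 replicate 1 (median -0.03), 6 without untreated replicate 3 (median -0.04) and 12 without RG2833 replicate 4, and the median was also below 0 without RG2833 replicate 2 or 3, or without both libraries rich in Ttr. Timm44, which tethers the import motor to the inner membrane, was lower in every RG2833 library than in any untreated one, at 39.9 ± 1.47 and 35.2 ± 1.69 CPM (n = 5 each; log2 fold change -0.18, SE 0.05; adjusted p = 0.841, edgeR). Of 10 membrane carriers and porins 7 were above 0 (median 0.04), and 4 were without untreated replicate 3 (median -0.02). The highest median with a single library left out was 0.06, without untreated replicate 1, with 7 above 0. Mpc2, a subunit of the mitochondrial pyruvate carrier, was higher without overlap, at 34.8 ± 1.07 and 38.2 ± 1.28 CPM (log2 fold change 0.14, SE 0.05; adjusted p = 0.841, edgeR). Of 15 electron carriers and partners outside the naming rule 11 were above 0 (median 0.02). The count was 8 (median 0.002) without RG2833 replicate 1, and 12 (median 0.05) without untreated replicate 5 or without RG2833 replicate 5. Etfa, which takes electrons from fatty acid oxidation, was at 0.22 (SE 0.10) and Higd1a at 0.13 (SE 0.05).

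Among 16 tested regulators of mitochondrial biogenesis 11 were above 0 (median 0.01), and 2 had an unadjusted p under 0.05. Without RG2833 replicate 1 the count was 6 (median -0.01), without untreated replicate 3 or RG2833 replicate 3 it was 8 (both medians below 0, as without both libraries rich in Ttr), and without RG2833 replicate 5 it was 12 (median 0.05). Ppargc1a was at 17.1, 14.9, 15.6, 15 and 14.3 CPM in the untreated and 18.3, 15.2, 19.4, 19.7 and 20.1 CPM in the RG2833 rats. All RG2833 libraries but replicate 2 were above the untreated range (log2 fold change 0.27, SE 0.09; adjusted p = 0.841, edgeR). Yy1 was at 43.9 ± 1.35 and 49.4 ± 4.4 CPM (a log2 fold change of 0.17, SE 0.07).

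**Figure D4:**
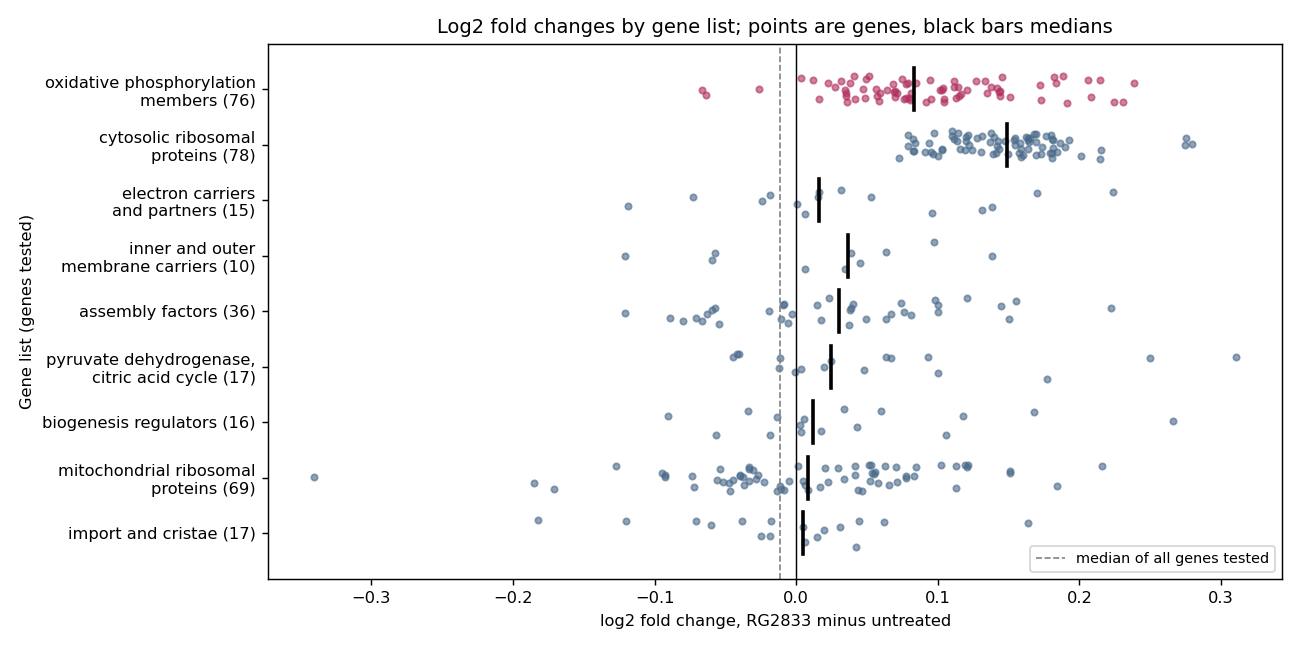
Log2 fold change (RG2833 minus untreated, x axis) of each tested gene in 9 lists (y axis, with the number of genes tested); points are genes, black bars medians, and the dashed line the median of all genes tested. The members and the cytosolic ribosomal proteins lie nearly all to the right of 0, and the other mitochondrial lists straddle it.

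Several other measures had the direction of the members, and their part in the result was not tested. Cytosolic ribosomal protein genes, which encode no mitochondrial protein, were above 0 in 78 of 78 tested genes (median log2 fold change 0.15), with 0 at an unadjusted p under 0.05. Under every alternative at least 77 of them were above 0, but the median was 0.27 without untreated replicate 3, 0.10 without untreated replicate 1 and 0.08 without RG2833 replicate 5. Their summed level was highest in RG2833 replicate 5 (27675 CPM), untreated replicate 3 (27624 CPM) and RG2833 replicate 4 (25782 CPM), and from 17711 to 21693 CPM in the other 7. These were also the 3 libraries with the highest complex IV sums and the lowest CA3 marker sums. The astrocyte markers were above 0 in 7 of 7 (summed level 5276 to 7692 CPM untreated, 5969 to 8479 CPM under RG2833), and all 4 tested endothelial markers were above 0 (187 to 357 and 217 to 395 CPM). Of 5 CA1 markers 4 were above 0, with mean sums of 647 CPM untreated and 810 CPM under RG2833, and Mpped1 had a log2 fold change of 0.47 (SE 0.18; by edgeR the unadjusted p = 0.0241, adjusted p = 0.841). All these ranges overlapped. In most of the other marker lists, more genes were below 0 than above. Of 6 pan-neuronal markers 1 was above 0 (4128 to 5390 and 4612 to 5272 CPM). Their mean sum was nonetheless higher under RG2833, at 4777 CPM untreated and 4914 CPM under RG2833. Of 6 CA3 and 3 dentate markers 0 were above 0, and of 3 red blood cell genes 0 were. The mean sums of the CA3, dentate, red blood cell, thalamus and interneuron lists were lower under RG2833. Of 6 oligodendrocyte markers 2 were above 0, though their mean sum was 10229 CPM untreated and 11106 CPM under RG2833. Of 5 thalamus markers 2 were above 0, with Calb2 at -1.03 (SE 0.35, by edgeR unadjusted p = 0.0139, adjusted p = 0.841). Calb2 was at 44.9 CPM in untreated replicate 4, 11.7 to 19.5 CPM in the other untreated and 8.40 to 13.8 CPM in the RG2833 libraries. Untreated replicate 4 also had the highest thalamus sum (96.4 CPM, against 35.7 to 68.8 CPM elsewhere). Of 6 interneuron markers 2 were above 0. At an unadjusted p under 0.05 Pvalb was higher (0.37, SE 0.11) and Sst (-0.50, SE 0.20) and Npy (-0.44, SE 0.20) were lower. Of 8 choroid plexus markers 4 were above 0 and of 6 microglia markers 4 were.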

How the data were processed

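Per the labels' protocols, the libraries were stranded and made from mRNA. The submitters' processing notes name bcl2fastq 2.17, Bowtie2 2.1.0, RSEM 1.2.15, edgeR and the build rn6, without their roles; the annotation is not given in the sources used here. The deposited table holds the authors' expected counts per gene, estimates that need not be whole (11.6% of values were not whole within a tolerance of 1e-06; 5.5% of the members' values). The authors' scaled table of the same libraries was not used.

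Counts were rounded, filtered with filterByExpr (minimum count 10, minimum total 15), scaled by TMM and compared with edgeR 4.0.16 (R 4.3.3; quasi-likelihood F test, robust), adjusted by Benjamini-Hochberg over 12161 genes at a threshold of 0.05. SEs come from the F statistic. Log2 CPM used a prior count of 2. The test was checked on simulated data. Groups were taken from the treatment labels. Alternatives were 2 other scalings, 2 filters (none; minimum count 50), DESeq2 1.42.0, limma-voom 3.58.1 with sample weights, a replicate block and left-out libraries. No gene lengths were given, so levels were not compared between genes, and counts without molecular identifiers limit precision beyond counting error.

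Named members were those with an unadjusted p under 0.05, with groups that do not overlap or with the highest or lowest fold change of a complex, plus isoforms and core subunits; of each other list, at most 4 genes with an unadjusted p under 0.05. The members and lists were chosen with earlier results of these data known. RefSeq sequences are on GRCr8; no coordinates of the authors' build are given. A gene of the members and a gene of another list are not reported here by name; counts and medians include them.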

Additional observations from a re-analysis of the deposited data

Results flagged for a closer look

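In 76 sets of 5 values (32 named members, the 5 complex sums and the sum of all members, in each group), the gap between an extreme library and its nearest neighbour was compared with the range of the set. In 2 sets it exceeded 0.71 of the range, where chance gives about 3.8. Sdhc, a membrane anchor of complex II, reached 129.8 CPM in untreated replicate 3, against 111.7 to 115.6 CPM for the rest of that group; the gap was 0.787 of the range. Ndufa12 stood at 57.75 CPM in RG2833 replicate 3, against 64.67 to 67.43 CPM for the rest of that group; the gap was 0.714 of the range.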

How the results depend on the processing

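Under all 18 alternatives 0 members had an adjusted p under 0.05, the smallest being 0.280 without untreated replicate 3, and at least 68 members had a log2 fold change above 0. The median over members ran from 0.075 to 0.102, and by complex from 0.06 to 0.10 (I), 0.08 to 0.10 (II), 0.09 to 0.13 (III), 0.12 to 0.19 (IV) and 0.06 to 0.09 (V). Every member with an unadjusted p under 0.05 was higher under RG2833 in each alternative, but their number was not stable: 7 with upper-quartile scaling (5.42% of all genes in either direction), 18 with DESeq2 (6.17%), 18 with limma-voom (10.4%, against 5.66%), 3 with the replicate block (3.30%), 2 without untreated replicate 2 and RG2833 replicate 1 together (4.90%), and from 3 to 27 with single libraries left out. Over all genes the count at an unadjusted p under 0.05 was 688, and 1263 with limma-voom, 401 with the replicate block and from 375 to 1732 with single libraries left out; DESeq2 gave 7 genes at an adjusted p under 0.05, against 0. The cause of these shifts was not tested. The labels number the rats 1 to 5 in both groups without saying that a number pairs them, and same-numbered rats did not deviate together (correlations across genes from -0.49 to -0.03), so the block has no basis in the design.

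The sign changed under at least 1 alternative for 11 of the 76 members, 4 in complex I, 4 in IV and 3 in V, among them the following. Atp5c1 was -0.0085 with limma-voom, -0.0044 without both libraries rich in Ttr, and from -0.028 to 0.031 with single libraries left out. Cox6b2 was 0.087 with limma-voom, 0.012 with the replicate block, 0.062 without both those libraries, and from -0.18 to 0.13 with single libraries left out. With single libraries left out, Cox4i2 ran from -0.035 to 0.29, Cox5a from -0.0042 to 0.072 and Cox7a2l from -0.014 to 0.083. Depth limits the isoforms: Cox4i2, Cox6b2 and Ndufa4l2 had at most 98 counts in any library, and SEs from 0.25 to 0.30.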
